A study of Mus musculus with 4 samples.

Results

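Bile acids are made from cholesterol in hepatocytes, and the 10 enzyme genes described here cover the entry into that pathway, its middle and its end. They were chosen by symbol: Cyp7a1 and Cyp8b1 of the classic route, Cyp27a1, Cyp7b1 and Cyp39a1 of the alternative routes, Hsd3b7 of a shared ring step, Amacr and Acox2 of side chain shortening, and Slc27a5 and Baat of conjugation. All 10 were found among the 56953 gene rows of the count table, and 9 of the 10 passed the filter on low counts; Hsd3b7 did not.

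Transcripts were counted in 4 mouse liver libraries, all from mice on a normal diet at 2 months of age with loxP-flanked Ubc13 alleles (flox/flox) in both groups. The 2 deletion libraries are labelled Alb positive with a hepatic Ubc13 deletion, and the 2 control libraries Alb negative and WT; Alb is taken here as the albumin-Cre transgene. Ube2n encodes Ubc13, which joins ubiquitin into K63-linked chains. The albumin promoter is active in hepatocytes and also in the fetal precursors that hepatocytes share with cholangiocytes, and which liver cells lost the gene was not measured here. The series asks how this loss bears on fatty liver disease. The labels do not say that the replicates came from separate animals, so p-values measure only the spread between these samples. Liver is the labelled source, but primary hepatocytes are named in the library protocol.

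In the classic route, CYP7A1 adds the first hydroxyl group to cholesterol and limits the rate of synthesis, HSD3B7 then oxidises the ring, and CYP8B1 steers the product to cholic acid. In the alternative routes an oxysterol comes first: CYP27A1 of mitochondria hydroxylates the cholesterol side chain, CYP7B1 then acts on that oxysterol, and CYP39A1 acts on an oxysterol that comes mainly from brain. Products of both routes pass to peroxisomes, where AMACR and ACOX2 take part in shortening the side chain. SLC27A5 activates bile acids with coenzyme A and BAAT links them to taurine or glycine, which makes them soluble enough for secretion.

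The RefSeq promoter windows (GRCm38, 250 bases before to 50 bases after the gene start) held 4 of the 10 members, and 2 are shown, 1 for each route. The gene start of a window is that of RefSeq, and for Cyp27a1 it lies before the start at 74713574 in the GENCODE coordinates given further below. Cyp27a1 opens an alternative route and was lower in the deletion livers, whereas Cyp8b1 sets the product of the classic route and did not pass the test. The Cyp27a1 window is chr1:74713285-74713584 on the plus strand, and the Cyp8b1 window is chr9:121916256-121916555 on the minus strand. Both are written 5′ to 3′ on the strand of the gene, with motif matches in capitals.
Cyp27a1: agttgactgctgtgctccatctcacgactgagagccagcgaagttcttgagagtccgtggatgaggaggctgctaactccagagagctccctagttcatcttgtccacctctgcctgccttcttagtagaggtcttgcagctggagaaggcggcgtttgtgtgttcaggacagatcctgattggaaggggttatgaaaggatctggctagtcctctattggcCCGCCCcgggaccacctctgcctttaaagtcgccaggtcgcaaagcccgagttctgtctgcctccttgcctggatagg
Cyp8b1: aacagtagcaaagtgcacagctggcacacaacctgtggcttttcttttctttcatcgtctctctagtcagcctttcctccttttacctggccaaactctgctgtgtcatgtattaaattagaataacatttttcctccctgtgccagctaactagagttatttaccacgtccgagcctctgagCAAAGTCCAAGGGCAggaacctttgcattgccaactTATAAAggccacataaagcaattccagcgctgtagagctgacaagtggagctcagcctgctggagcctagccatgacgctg

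The capitals of the Cyp8b1 window hold 3 motifs searched on both strands. CAAAGTCCA, the motif preferred by the liver factor HNF4A, starts 67 bases before the gene start and was present in 0.475% of the 32851 promoter windows. CAAGGNCA, a form of the motif read by NR5A2 (LRH-1), starts 60 bases before the gene start, overlaps the HNF4A motif and was present in 6.71% of windows. TATAAA starts 31 bases before the gene start and was present in 13.6% of windows. The capitals of the Cyp27a1 window are a GC box (GGGCGG, here on the opposite strand), which was present in 35.7% of windows. Neither the nuclear receptor half-site AGGTCA nor the D-box TTATGTAA, the motif of DBP and its relatives, was found in the windows of the 4 members, against 16.3% and 0.938% of all windows. A match of letters is a description of the window and not a measured binding site.

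Library totals lay between 16270424 and 17800138 counts, and these 3′ end libraries give counts that do not scale with transcript length. CPM values below are counts relative to the library total, scaled by edgeR's TMM factors, and log2 fold changes are deletion over control with a standard error (SE). Ube2n had 5.88 and 5.97 CPM in the deletion libraries and 41.3 and 44.9 CPM in the control libraries (log2 fold change -2.86 ± 0.16, edgeR adjusted p = 0.00188). Xist, the RNA of the inactive X chromosome in female cells, had 527.0 and 200.5 CPM in deletion replicates 1 and 2 and 0.555 and 0.137 CPM in control replicates 1 and 2. Transcripts of 4 genes of the Y chromosome (Uty, Ddx3y, Eif2s3y and Kdm5d) summed to 0 and 90.3 CPM in the deletion libraries and to 142.6 and 151.8 CPM in the control libraries. Deletion replicate 2 thus held both Xist and Y-linked transcripts, and the labels give neither the sex of the mice nor any pooling, so it is not known whether this library comes from 1 animal. Genotype and sex-linked transcripts cannot be told apart in any group difference given here.

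Hepatocyte genes other than the members moved with the genotype as well. Albumin (Alb) took 4.87% of counts in each deletion library (exact Clopper-Pearson 95% intervals 4.860 to 4.881 and 4.859 to 4.880, counting error only) and 10.8% and 10.3% in the control libraries (10.83 to 10.86 and 10.27 to 10.30). In edgeR's test Alb was not called (log2 fold change -1.41 ± 0.33, adjusted p = 0.0612), while it passed with DESeq2 (adjusted p = 8.95e-14). Of 9 hepatocyte markers tested, 3 fell in edgeR's test (Ttr, Serpina1c and Hpd; 6 at an unadjusted p under 0.05, 7 with DESeq2) and 9 had a log2 fold change below 0, with a median of -0.87. Their summed level was 74700 and 69930 CPM in the deletion libraries and 167400 and 158500 CPM in the control libraries. Alb alone gave 45310 and 42890 CPM and 119000 and 115000 CPM of these. Of 10 macrophage markers 4 rose in edgeR's test (Cd5l, Cd74, Cybb and Trem2; 8 at an unadjusted p under 0.05). Over all 14600 genes tested, edgeR called 2.16% lower and 4.41% higher. Cd5l lay at the threshold (edgeR adjusted p = 0.0499). With a block for replicate number in edgeR, Cd5l and Trem2 lost their calls (adjusted p = 0.112 and 0.103), while Cd74 and Cybb kept theirs (0.0136 and 0.0108). All 10 macrophage markers had a log2 fold change above 0, with a median of 0.68. The 10 summed to 1340 and 1080 CPM in the deletion libraries and to 406.8 and 532.3 CPM in the control libraries. Of these, Cd74 gave 431.0 and 311.9 CPM and 41.2 and 47.5 CPM, and Cybb gave 183.1 and 190.4 CPM and 13.1 and 17.3 CPM. Of 9 cholangiocyte markers tested 3 rose (Spp1, Sox9 and Cdh1) and 4 had a log2 fold change below 0, among them the keratin Krt19 (-2.63 ± 1.01, adjusted p = 0.182), chosen after its values were seen. They summed to 1537 and 2181 CPM in the deletion libraries and to 185.3 and 130.8 CPM in the control libraries, but Spp1 alone gave 1327 and 1916 CPM and 50.4 and 52.5 CPM of these, and the other 8 summed to 210.1 and 264.9 CPM against 134.9 and 78.3 CPM. All 8 were higher in control replicate 1 than in control replicate 2. Krt19 had 2.91 and 3.96 CPM in the deletion libraries and 39.2 and 3.23 CPM in control replicates 1 and 2. Its fold change thus rests on control replicate 1. Of 10 stellate and endothelial markers 0 passed in edgeR (3 at an unadjusted p under 0.05, 1 with DESeq2), and the largest difference was that of the endothelial receptor Kdr (log2 fold change -0.71 ± 0.16, adjusted p = 0.0556). The 9 mitochondrially encoded transcripts summed to 34430 and 32990 CPM in the deletion libraries and to 55000 and 53650 CPM in the control libraries, and 3 of them fell (mt-Co2, mt-Co3 and mt-Atp6). In bulk tissue, fewer hepatocytes and less RNA per hepatocyte cannot be told apart, and the part of these shifts in the enzyme values was not tested.

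Cyp27a1 and Cyp39a1 of the alternative routes and Slc27a5, the activating enzyme of conjugation, fell in the deletion livers, and no call was made in the classic route or in side chain shortening. The calls alone do not show that the routes differ. Cyp7a1 of the classic route, not called, had a log2 fold change of -1.07, beside -1.06 for Cyp27a1 and -1.08 for Cyp39a1. Of the 9 enzymes tested, 3 fell (Cyp27a1, Cyp39a1 and Slc27a5), 0 rose and 6 did not pass edgeR's test; at an unadjusted p under 0.05 there were 5 lower and 0 higher, and DESeq2 called 5 lower and 0 higher. Across all 14600 genes tested, 6.57% were called at an edgeR adjusted p under 0.05, 2.16% lower and 4.41% higher in the deletion libraries. A total of 8 of the 9 had a log2 fold change below 0, and their median was -1.06, beside -0.0036 for all genes tested and -0.87 for the hepatocyte markers. The deletion and control libraries did not overlap for 7 of the 9, 6 of them lower in the deletion libraries, beside 56.0% of all genes tested without overlap and 27.3% without overlap and lower. Together the 10 enzymes took 0.154% and 0.164% of counts in the deletion libraries and 0.271% and 0.234% in the control libraries.

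**Figure D1:**
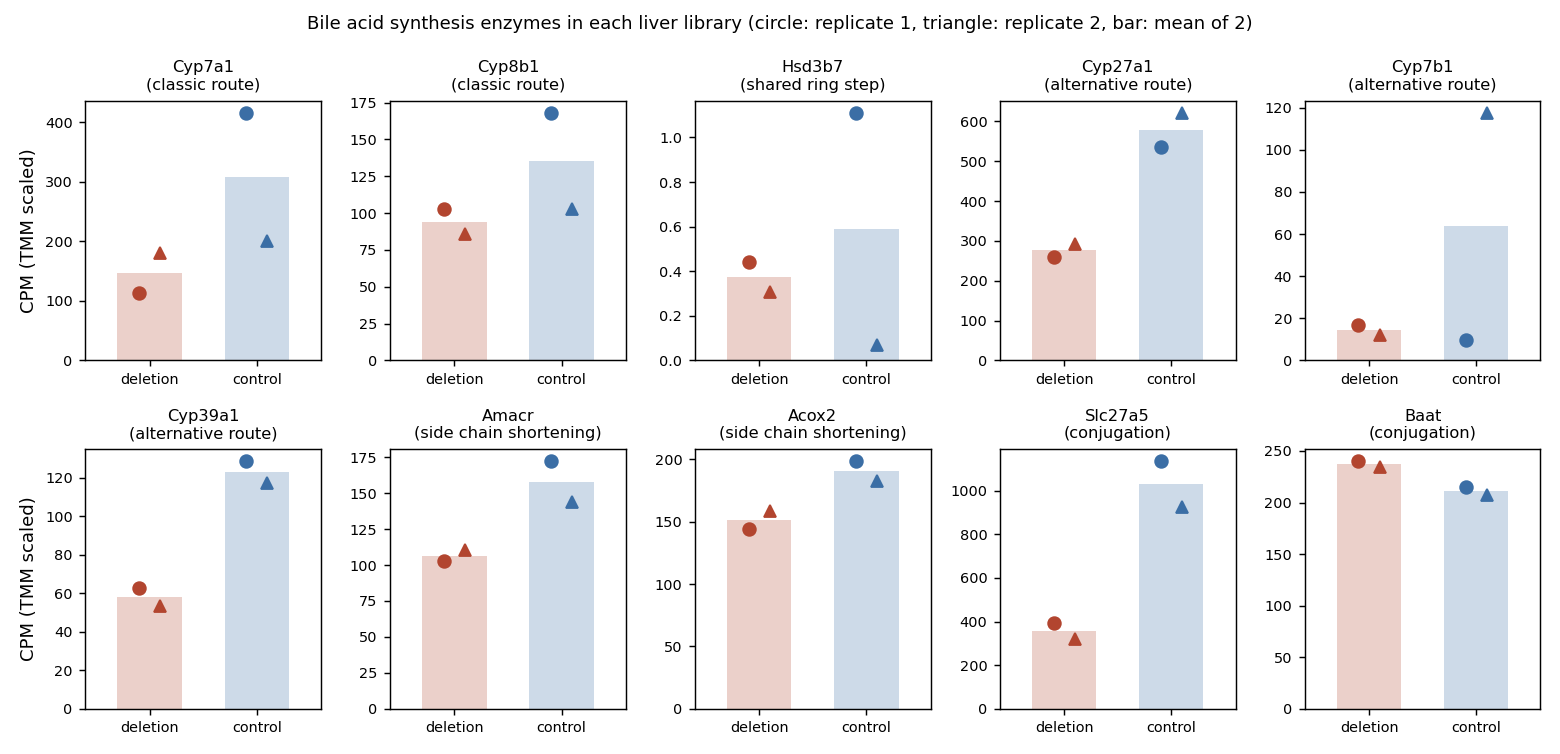
Level of each of the 10 enzymes in CPM (TMM scaled, linear axis from 0) in the 2 deletion and 2 control libraries; points are libraries and bars are means of 2. The deletion points of Cyp27a1, Cyp39a1 and Slc27a5 all lie below the control points, while the control points of Cyp7a1 and Cyp7b1 lie far apart.

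The entry enzyme of the classic route was lower in both deletion libraries, but its control libraries differed too much for a call. Cyp7a1 (ENSMUSG00000028240, chr4:6265612-6275633, minus strand) had 113.6 and 179.8 CPM in deletion replicates 1 and 2 and 415.3 and 200.4 CPM in control replicates 1 and 2. The groups did not overlap, yet deletion replicate 2 and control replicate 2 lay close together, and control replicate 1 was 2.07 times control replicate 2. The log2 fold change was -1.07 ± 0.38 (95% interval -2.0 to -0.13, edgeR adjusted p = 0.16). Without control replicate 2 it was -1.50 (adjusted p = 0.000898), and without control replicate 1 it was -0.45 (adjusted p = 0.332). A fit with 1 control takes its spread from the deletion pair alone and assumes that the lone control varies like it, and calls over all genes were then 1700 and 2081 without control replicates 1 and 2, against 959 with all 4 libraries, so a call in such a fit, here and below, is a weaker criterion. Cyp7a1 also passed with DESeq2 (adjusted p = 0.0339) and, in edgeR, without the filter on low counts (6.21e-06). Its adjusted p over 12 alternatives ran up to 0.43. The unfiltered fit gave Cyp7a1 and Cyp7b1 near-equal SEs of 0.20 and 0.21, against 0.38 and 0.98 with the filter. It thus took little account of each gene's own spread, and a pass in it, here and below, is also a weaker criterion.

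Cyp8b1, the branch enzyme toward cholic acid, showed the same order of controls. Cyp8b1 (ENSMUSG00000050445, chr9:121914356-121916305, minus strand) had 102.7 and 85.5 CPM in the deletion libraries and 168.0 and 102.7 CPM in the control libraries. Control replicate 1 was again the high library, and control replicate 2 reached the level of deletion replicate 1, so that the groups overlapped. The log2 fold change was -0.52 ± 0.26 (95% interval -1.15 to 0.10, edgeR adjusted p = 0.277). It passed in 1 alternative, without control replicate 2 (-0.84, adjusted p = 0.0151).

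Hsd3b7, which acts after CYP7A1 on the sterol ring, was close to undetected and was not tested. Hsd3b7 (ENSMUSG00000042289, chr7:127800604-127803802, plus strand) had 8 and 6 counts in the deletion libraries and 18 and 1 counts in the control libraries, where 3 counts correspond to 0.169 to 0.184 CPM before scaling. The predicted gene Gm49388 overlaps it on the same strand in the GENCODE M21 annotation and had 0 counts in each library. The gene 9430064I24Rik, which overlaps it on the other strand, had 5 and 5 counts in the deletion libraries and 10 and 5 counts in the control libraries. How the authors' counting treated reads in overlapping genes is not given in the sources used here, so these counts do not show how much Hsd3b7 was expressed.

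In the alternative routes, Cyp27a1 and Cyp39a1 both fell about 2-fold with tight replicates. Cyp27a1 (ENSMUSG00000026170, chr1:74713574-74737892, plus strand), the sterol side chain hydroxylase whose promoter window is printed above, had 260.8 and 293.2 CPM in the deletion libraries and 535.0 and 621.2 CPM in the control libraries. The higher deletion library stood at 1.12 times the lower and the higher control library at 1.16 times the lower, and no library of one group came near the other. It fell 2.09-fold (log2 fold change -1.06 ± 0.17, 95% interval -1.48 to -0.64, edgeR adjusted p = 0.0246; both deletion libraries were below both controls). The call was lost without deletion replicate 1 (-0.99, adjusted p = 0.0991) and without deletion replicate 2 (-1.15, adjusted p = 0.0949).

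Cyp39a1 (ENSMUSG00000023963, chr17:43667425-43751431, plus strand), the hydroxylase of a brain-derived oxysterol, had 62.7 and 53.4 CPM in the deletion libraries and 128.6 and 117.1 CPM in the control libraries. Its groups were separated as clearly as those of Cyp27a1, at a lower level. It fell 2.12-fold (log2 fold change -1.08 ± 0.16, 95% interval -1.47 to -0.69, edgeR adjusted p = 0.0188; both deletion libraries were below both controls). The call was lost without deletion replicate 1 (-1.21, adjusted p = 0.0501) and without deletion replicate 2 (-0.97, adjusted p = 0.115). With 1 control left out, the log2 fold changes of both genes stayed below 0.

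Cyp7b1 (ENSMUSG00000039519, chr3:18071950-18243338, minus strand), the oxysterol hydroxylase that follows CYP27A1, varied more between the controls than between the groups. It had 16.6 and 12.3 CPM in deletion replicates 1 and 2 and 9.75 and 117.5 CPM in control replicates 1 and 2. Control replicate 2 was 12.1 times control replicate 1, and control replicate 1 was the lowest of the 4 libraries. The log2 fold change of -2.14 ± 0.98 did not pass (95% interval -4.53 to 0.25, edgeR adjusted p = 0.249). This fold change passed without the filter on low counts (edgeR adjusted p = 5.25e-22), the weaker criterion named above. Without control replicate 1 it was -3.03 (adjusted p = 4.18e-07), and without control replicate 2 it was 0.57 (adjusted p = 0.203), so its direction rests on control replicate 2.

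**Figure D2:**
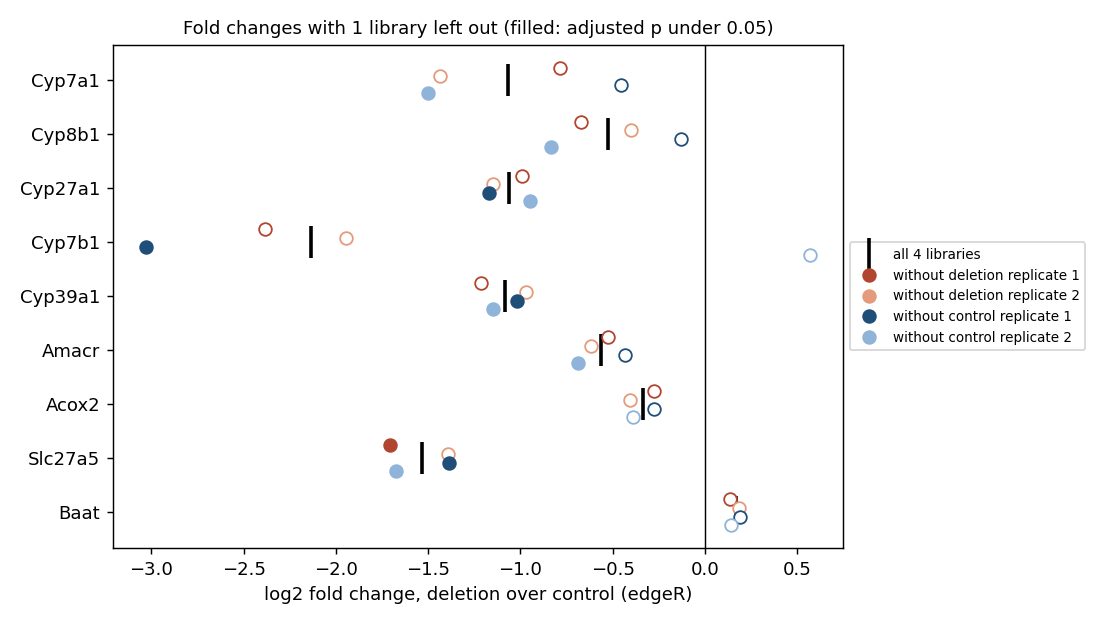
Log2 fold change (deletion over control, edgeR) of the 9 tested enzymes with all 4 libraries (bar) and with each library left out (circles, filled where the adjusted p was under 0.05). Cyp7b1 spans from -3.03 to 0.57 and Cyp7a1 from -1.50 to -0.45, whereas Baat stays between 0.14 and 0.19.

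In mouse liver Cyp7b1 is known for higher levels in males and Cyp7a1 for a daily rhythm, so genes of both kinds were set beside them, Cyp7b1 itself left out of the male-biased list. The single genes named in this and the next paragraph, other than those called, were chosen from the listed male-biased, female-biased and regulator genes after their values were seen. Of the 10 male-biased genes other than Cyp7b1, 9 were higher in control replicate 2 than in control replicate 1 and 1 was lower. Among these, Elovl3 and Ugt2b38 had 0.659 and 0.618 CPM and 3.52 and 4.01 CPM in the deletion libraries and 1.36 and 14.0 CPM and 1.97 and 24.7 CPM in control replicates 1 and 2. The female-biased list was divided, with 7 of 12 genes higher in control replicate 2 and 5 higher in control replicate 1. Cyp2b13, of the 5, had 1.26 and 1.49 CPM in the deletion libraries and 53.4 and 1.65 CPM in control replicates 1 and 2. Cyp17a1, of the 7, had 65.0 and 48.1 CPM in the deletion libraries and 70.9 and 149.0 CPM in control replicates 1 and 2. The controls thus differed in one direction for most of the male-biased list and in both directions for the female-biased list.

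The clock output gene Dbp had 18.6 and 31.55 CPM in the deletion libraries and 121.5 and 16.3 CPM in the control libraries. Nr1d1, a repressor of the clock loop, had 10.4 and 44.1 CPM in the deletion libraries and 90.1 and 7.56 CPM in the control libraries. Control replicate 1 was the highest of the 4 libraries for Dbp, Nr1d1, Cyp7a1 and Cyp8b1, while control replicate 2 was the lowest for Dbp and Nr1d1 only. The labels give no hour of sampling, and the part of the clock genes or the sex-biased genes in the enzyme values was not tested. In edgeR, 2 of the 10 male-biased genes other than Cyp7b1 fell (Hsd3b5 and Slco1a1) and 0 rose, and DESeq2 gave 4 lower and 1 higher, as did an unadjusted p under 0.05. In the female-biased list 1 of 11 tested fell (Hao2) and 0 rose, with 6 lower and 0 higher unadjusted and 2 lower and 0 higher with DESeq2. The edgeR shares over all genes tested were 2.16% lower and 4.41% higher. Summed levels were 2197 and 1696 against 1249 and 2654 CPM for the male-biased list, and 733.1 and 504.9 against 1205 and 977.6 CPM for the female-biased list. Mup20 alone gave 1315 and 942.1 against 109.7 and 353.4 CPM of the male-biased sum. In that list 8 of the 10 genes had a log2 fold change below 0 and 2 above. Cyp2a4 alone gave 553.7 and 358.1 against 434.8 and 653.3 CPM of the female-biased sum.

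**Figure D3:**
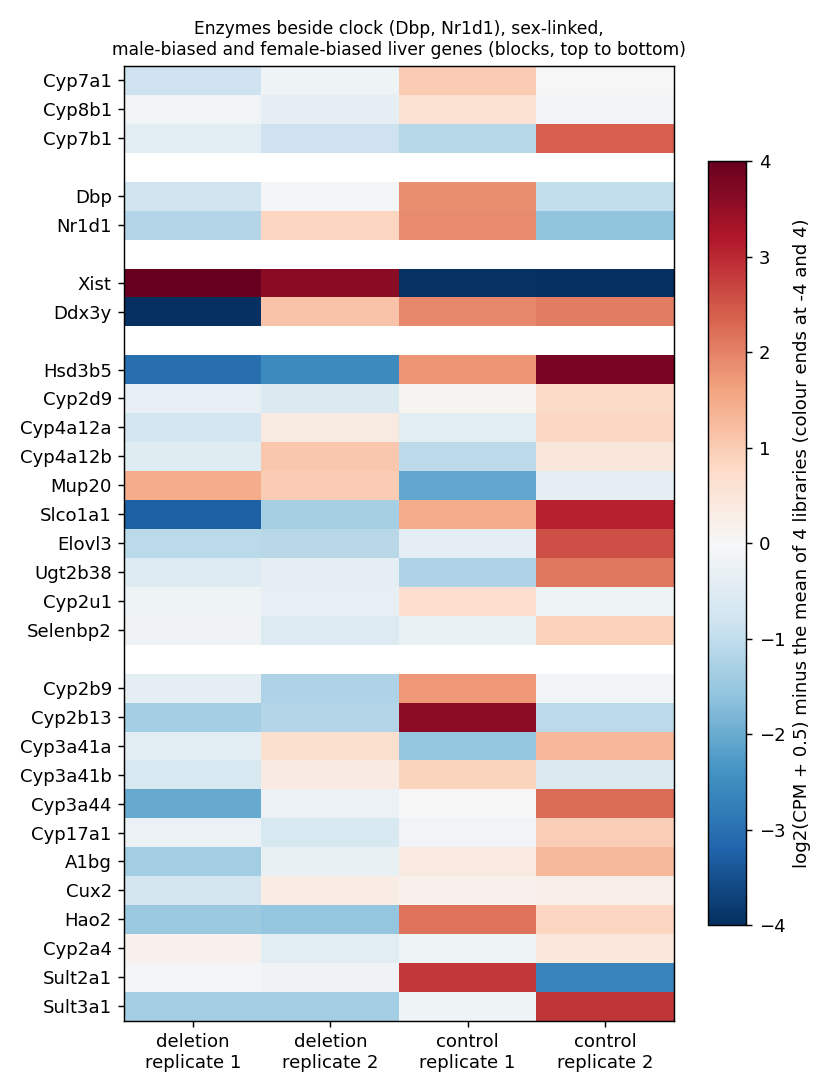
Colour gives log2(CPM + 0.5) minus the mean of the 4 libraries for Cyp7a1, Cyp8b1 and Cyp7b1 (top block) and, below, for clock, sex-linked, male-biased and female-biased genes, with deletion libraries left of control libraries. Cyp7b1 is highest in control replicate 2, as are Hsd3b5, Elovl3 and Ugt2b38, the female-biased genes divide between the controls (7 and 5 of 12), and Cyp7a1 is highest in control replicate 1, as are Dbp and Nr1d1.

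Neither enzyme of side chain shortening passed the test. Amacr (ENSMUSG00000022244, chr15:10981756-10996626, plus strand), the racemase that gives bile acid intermediates the form peroxisomal oxidation accepts, had 102.8 and 110.4 CPM in the deletion libraries and 172.1 and 143.5 CPM in the control libraries. Acox2 (ENSMUSG00000021751, chr14:8225511-8259353, minus strand), the oxidase of the first peroxisomal step, had 144.0 and 158.4 CPM in the deletion libraries and 198.3 and 182.8 CPM in the control libraries. Each gene was lower in both deletion libraries than in either control library. The log2 fold changes were -0.57 ± 0.16 for Amacr (95% interval -0.96 to -0.17, edgeR adjusted p = 0.0984) and -0.33 ± 0.15 for Acox2 (-0.70 to 0.03, adjusted p = 0.241). Amacr passed with DESeq2 (adjusted p = 0.0492), without the filter on low counts (0.0498) and without control replicate 2 (0.0381), while Acox2 passed in 0 of 12 alternatives.

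The conjugation enzymes parted from each other. Slc27a5 (ENSMUSG00000030382, chr7:12988346-12998192, minus strand), the ligase that activates bile acids with coenzyme A, had 393.0 and 318.5 CPM in the deletion libraries and 1135 and 927.2 CPM in the control libraries. The higher deletion library stood well below the lower control library. Slc27a5 fell 2.90-fold, the largest fall among the 3 enzymes called (log2 fold change -1.54 ± 0.20, 95% interval -2.03 to -1.04, edgeR adjusted p = 0.0139; both deletion libraries were below both controls). It lost the call without deletion replicate 2 (-1.39, adjusted p = 0.063) and passed with each of the other libraries left out.

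Baat (ENSMUSG00000039653, chr4:49489422-49506557, minus strand), the transferase that adds taurine or glycine, had 240.0 and 234.0 CPM in the deletion libraries and 215.2 and 207.3 CPM in the control libraries. Both deletion libraries were slightly above both control libraries, the reverse of Slc27a5. The log2 fold change was 0.17 ± 0.15 (95% interval -0.19 to 0.52, edgeR adjusted p = 0.544). The upper bound of that interval lies below a 2-fold rise, the lower bound lies well above the falls of Slc27a5, Cyp27a1 and Cyp39a1, and Baat passed in 0 of 12 alternatives.

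**Figure D4:**
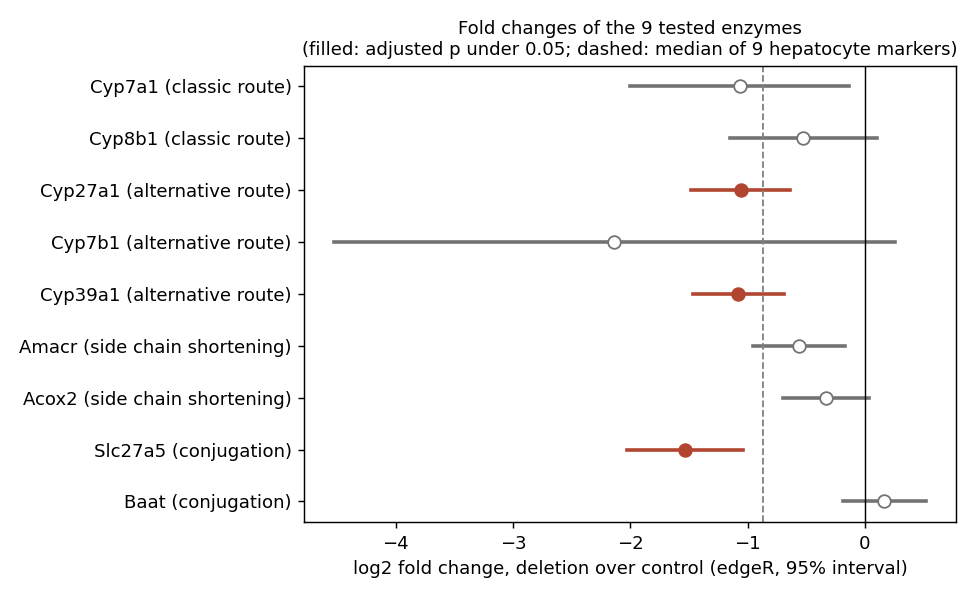
Log2 fold change (deletion over control, edgeR) of the 9 tested enzymes with 95% intervals, ordered by their place in the pathway; filled points passed at an adjusted p under 0.05 and the dashed line is the median of 9 hepatocyte markers, -0.87. The intervals of Slc27a5, Cyp27a1 and Cyp39a1 lie below 0, and that of Baat, from -0.19 to 0.52, does not reach them.

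Ratios of a pair of enzymes within 1 library do not depend on scaling or depth, and they were read as values, since 2 libraries against 2 cannot give an exact permutation p below 0.33. The log2 ratio of Baat to Slc27a5 was -0.71 and -0.44 in the deletion libraries and -2.40 and -2.16 in the control libraries. This was the 1 ratio of the 5 shown in which the groups did not overlap: Baat stood at 0.611 and 0.735 times Slc27a5 in the deletion libraries and at 0.190 and 0.224 times in the control libraries. Levels of single genes did not overlap for 56.0% of all genes tested, so a lack of overlap alone does not set this ratio apart. Entry into the classic against the alternative route, as the log2 ratio of Cyp7a1 to Cyp27a1, was -1.20 and -0.71 in the deletion libraries and -0.37 and -1.63 in the control libraries, so the deletion libraries lay between the controls. The ratio of Cyp7a1 to Cyp7b1 was 2.78 and 3.87 in the deletion libraries and 5.41 and 0.77 in the control libraries, again with the deletion libraries between the controls. Cyp8b1 to Cyp7a1, the step toward cholic acid relative to entry, was -0.15 and -1.07 in the deletion libraries and -1.31 and -0.96 in the control libraries. Cyp8b1 to Cyp7b1 was 2.63 and 2.80 in the deletion libraries and 4.11 and -0.19 in the control libraries. No shift between the classic and the alternative entry could be told from the spread between the controls, while the balance of the conjugation enzymes differed by 1.70 on the log2 scale (means -0.58 in the deletion and -2.28 in the control libraries).

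**Figure D5:**
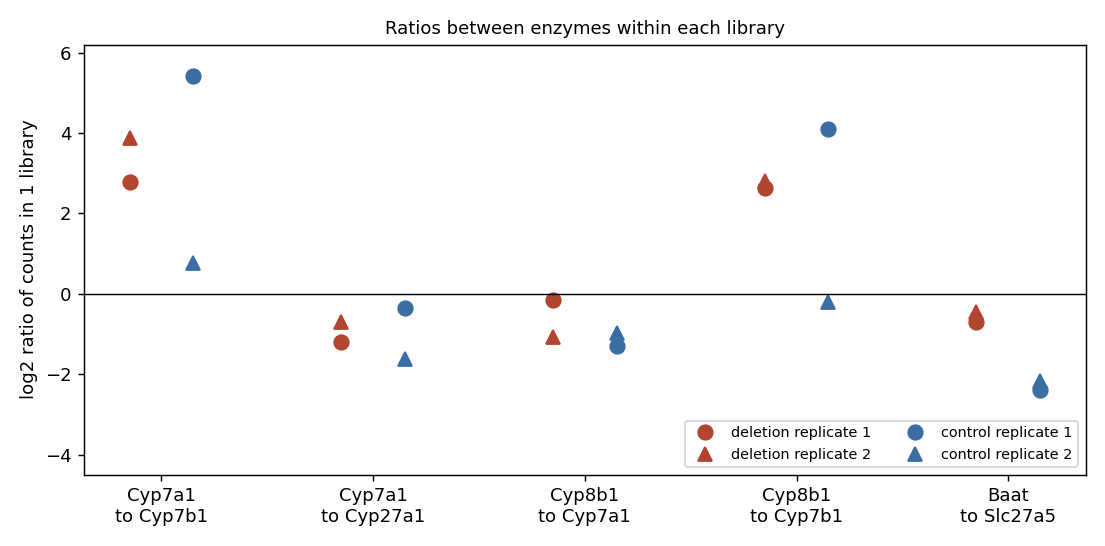
Log2 ratio of the counts of 2 enzymes within each library, with deletion libraries left of control libraries for each ratio. The groups separate for Baat to Slc27a5 (-0.71 and -0.44 against -2.40 and -2.16) and overlap for the other 4 ratios.

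Other enzymes of the pathway were read from a list of 21 names, of which 20 were found (Stard1 was not a symbol in the annotation) and 18 were tested. Of these, 3 fell, 0 rose and 15 did not pass in edgeR, with a median log2 fold change of -0.58; at an unadjusted p under 0.05 there were 10 lower and 1 higher, and DESeq2 called 6 lower and 1 higher. The edgeR shares over all genes tested were 2.16% lower and 4.41% higher. Slc27a2, a second bile acid activating ligase of the same family as Slc27a5, had 691.5 and 563.5 CPM in the deletion libraries and 1352 and 1374 CPM in the control libraries and fell 2.17-fold (log2 fold change -1.12 ± 0.19, edgeR adjusted p = 0.0266). Akr1c14, a hydroxysteroid dehydrogenase, fell 2.15-fold (-1.10 ± 0.22, adjusted p = 0.0387), and Sult2a8, a bile acid sulfotransferase of mouse liver, fell 18.1-fold (-4.18 ± 0.33, adjusted p = 0.00405). Among the fits with 1 library left out, Slc27a2 and Akr1c14 did not pass where deletion replicate 2 was missing (adjusted p = 0.129 and 0.158), while Sult2a8 kept its call in all 12 alternatives. Acnat2, a peroxisomal acyltransferase related to Baat, was the other conjugation-type gene above 0, with 61.2 and 64.2 CPM in the deletion libraries and 27.3 and 41.4 CPM in the control libraries (log2 fold change 0.87 ± 0.22, adjusted p = 0.0738); it and the other genes named in this and the next paragraph without a call were chosen after their values were seen.

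Among regulators of bile acid synthesis, 1 nuclear receptor fell and FXR, SHP, HNF4A and LRH-1 were not called. Of 25 listed, 23 were tested, 1 fell, 0 rose and 22 did not pass in edgeR, with a median log2 fold change of -0.25; at an unadjusted p under 0.05 there were 4 lower and 0 higher, and DESeq2 called 3 lower and 0 higher. Across all 14600 genes tested edgeR called 6.57%, 2.16% of them lower and 4.41% higher, so this count does not set the regulators apart. The 1 that fell was Nr1i3 (CAR), a nuclear receptor for drugs and endogenous ligands, with 12.4 and 13.6 CPM in the deletion libraries and 73.2 and 55.5 CPM in the control libraries (log2 fold change -2.30 ± 0.19, edgeR adjusted p = 0.00465), a call that held in all 12 alternatives. Nr1h4, the gene of the bile acid receptor FXR, was at -0.23 ± 0.14 (adjusted p = 0.374). Nr0b2, the gene of the repressor SHP that FXR induces, had 22.2 and 21.3 CPM in the deletion libraries and 66.3 and 29.1 CPM in the control libraries (-1.14 ± 0.37, adjusted p = 0.128), with control replicate 1 again the high library. Hnf4a and Nr5a2, whose motifs lie in the Cyp8b1 window, were at -0.21 ± 0.17 and 0.05 ± 0.14 (adjusted p = 0.52 and 0.88). Klb, the co-receptor of the gut hormone that represses Cyp7a1, was at -0.77 ± 0.20 (adjusted p = 0.0782), and its receptor Fgfr4 at 0.27 ± 0.17 (adjusted p = 0.409).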

How the data were processed

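QuantSeq 3′ libraries were sequenced (single-end, 75 bp) and their reads aligned with Bowtie2, per the labels' protocols; builds mm10 and GRCm38 are named in the submitters' processing notes. Strand setting, annotation and counting program: not given in the sources used here. Raw counts per gene, in whole numbers, were deposited by the authors, with 0 further value columns. Symbols and coordinates are from GENCODE M21 (GRCm38), which matched 52029 of 56953 identifiers; where identifiers shared a symbol, the 1 with more counts kept it.

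Groups were compared with edgeR 4.0.16 under R 4.3.3 by its two-sided quasi-likelihood F test, with genotype alone in the model and TMM scaling. The filter was filterByExpr (count minimum 10, total minimum 15), and 14600 genes passed. The fit had 2 residual and 4.14 prior degrees of freedom. Calls were made at a Benjamini-Hochberg adjusted p under 0.05 over all genes tested; each SE was the size of the log2 fold change divided by the root of its F statistic. Alternatives used DESeq2 1.42.0, limma 3.58.1 (voom), other scaling, robust fitting, no filter, a replicate block and each library left out. The edgeR procedure was also run on simulated counts with the same spread for all genes, which does not test calls for genes that differ in spread. CPM values were computed here from the deposited counts. Replicates differed by more than sampling noise (chi-square per degree of freedom 25.3 for deletion and 38.9 for control libraries).

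The enzymes, gene lists and alternatives were chosen with earlier results of these data known. Outside the 10 enzymes, Ube2n, Alb, Xist and the Y-linked genes, genes are named by rule where called, or, in a list without a call, for the largest absolute log2 fold change; further genes named without a call were chosen after their values were seen. A few genes of these lists are not reported here and were left out of the lists' counts and sums.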

Additional observations from a re-analysis of the deposited data

How the results depend on the processing

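The 3 enzyme calls (Cyp27a1, Cyp39a1 and Slc27a5) were the same 3 with library sizes alone, DESeq2 size factors in edgeR, limma-voom, robust fitting and the replicate block. DESeq2 called 5 enzymes and a fit without the low count filter 6, all lower, and leaving out 1 library gave 0 to 6: 1 without deletion replicate 1, 0 without deletion replicate 2 (where 5 had an unadjusted p under 0.05 in edgeR), 4 without control replicate 1 and 6 without control replicate 2. Over all genes 959 were called (67.2% higher), against 1764 with library sizes alone (88.5% higher), 1647 with DESeq2 (60.3% higher), 2768 without the filter (59.4% higher), 390 with the replicate block and 343 to 2081 with 1 library left out (343 and 499 without deletion replicates 2 and 1, 1700 and 2081 without control replicates 1 and 2). Library sizes alone moved the median of all genes by 0.29 on the log2 scale and the enzyme median to -0.77; Baat was then at 0.46 (adjusted p = 0.0896). The Cyp7b1 log2 fold change reversed to 0.57 without control replicate 2 and was -3.03 without control replicate 1; the cause was not tested. Replicate numbers gave no sign of pairing (correlation of deviations -0.12 over 14600 genes), the block ended the calls of 12 other named genes, among them Slc27a2 and Akr1c14 (adjusted p = 0.0526 and 0.0661), and a crossed block, chosen after seeing the data, called 1366 genes and 4 enzymes. Of 34 other named genes under 12 alternatives, 53 values lost and 20 gained a call and 335 kept their side of the threshold. With 2 libraries a group, an enzyme outside the calls is not shown to be unchanged, and Hsd3b7 is limited by its counts.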

Other observations

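Carriers that move bile acids and bile lipids split by direction in the deletion livers. Of 14 listed, 13 were tested, 4 fell, 3 rose and 6 did not pass in edgeR. At an unadjusted p under 0.05 there were 7 lower and 4 higher, and DESeq2 called 6 lower and 4 higher. Over all 14600 genes tested, edgeR called 2.16% lower and 4.41% higher. The uptake carriers Slc10a1 (NTCP) and Slco1b2 fell 2.83-fold and 2.16-fold (edgeR adjusted p = 0.0188 and 0.0484), Slco1a1, a male-biased uptake carrier, fell 23.5-fold (adjusted p = 0.0319), and the sterol exporter subunit Abcg8 fell 2.57-fold (adjusted p = 0.0478). The basolateral exporter Abcc3 and the basolateral exporter subunit Slc51b rose 2.02-fold and 3.59-fold (edgeR adjusted p = 0.0271 and 0.0478). The phospholipid exporter Abcb4 rose 1.84-fold (adjusted p = 0.0451). Slc51b had 62 and 85 counts in the deletion libraries and 14 and 19 counts in the control libraries. Its partner subunit Slc51a was close to undetected and was not tested, with 3 and 1 counts in the deletion libraries and 2 and 4 in the control libraries. The canalicular bile salt export pump Abcb11, named after its values were seen, was at -0.67 ± 0.22 (adjusted p = 0.131). All 7 calls but that of Slco1a1 were lost without deletion replicate 2, and that of Slco1a1 was lost with robust fitting (edgeR adjusted p = 0.123). With the replicate block, Abcb4, Abcc3, Slc51b, Abcg8 and Slco1b2 lost their calls (edgeR adjusted p from 0.0524 to 0.0913). With library sizes alone, Slco1b2 and Abcg8 lost theirs (0.0586 and 0.0635), and with limma-voom Slc51b did (0.0539). Robust fitting also ended the call of Abcg8 (edgeR adjusted p = 0.0513), and the crossed block those of Slco1b2 and Slc51b (0.0512 and 0.0505). Abcb4, Abcc3, Slc51b and Abcg8 lost their calls without deletion replicate 1 as well (log2 fold changes 1.04, 1.12, 2.00 and -1.49). Slc51b also lost its call without control replicate 1 (1.57).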
